A study of Mus musculus with 200 samples.

Results

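Genotype at the *Lrrtm1* region of mouse chromosome 6 was used to divide N2 embryos into 2 groups, and total expression was compared between them across all autosomal genes. In the deposited genotypes, 72 of 154 embryos were heterozygous (1 B6 and 1 Cast copy) and 82 were B6/B6, out of 184 embryos with a column in the tables. *Lrrtm1* and *Ctnna2* had the same genotype in every embryo, and no other gene shared it in all 154, so these 2 genes stand for the region. All embryos were whole embryos at E11.5, dissected free of membranes and placenta, from B6 mothers mated to F1 males (89 embryos, 44 of them heterozygous) or from F1 mothers mated to B6 males (65 embryos, 28 heterozygous). B6 is the inbred strain C57BL/6J and Cast is CAST/EiJ. The F1 parents came from B6 females and Cast males, so the Cast copy of an N2 embryo came from its father in the first cross and from its mother in the second. A heterozygous embryo differs from a B6/B6 embryo at this locus by the whole linked stretch of Cast chromosome, not by a single variant.

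In a backcross each embryo carries either no Cast copy or a single one at every autosomal locus. A variant that acts in cis changes the output of the chromosome copy it lies on, so the gene's total level follows the genotype at the gene and its alleles are read unequally in F1 hybrids. A variant that acts in trans changes a diffusible product and can move genes on other chromosomes. *Ctnna2* encodes an α-catenin of neurons that links cadherins to the actin cytoskeleton, and *Lrrtm1* encodes a leucine-rich repeat membrane protein of synapses. In mm9, *Lrrtm1* lies at chr6:77192683-77207785 on the plus strand, inside *Ctnna2* (chr6:76831631-77929693, minus strand), with no exon of one overlapping an exon of the other. *Pdia2*, which encodes a protein disulfide isomerase and lies at chr17:26332944-26336032, was named as a candidate for regulation by this region when the comparison was set up with earlier results of these data known, so its values are a description.

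The share of heterozygous embryos was 46.8% (95% exact Clopper-Pearson interval 38.7 to 55.0). It was 49.4% with B6 mothers (38.7 to 60.2) and 43.1% with F1 mothers (30.8 to 55.96), so a departure from equal inheritance was not detectable with these numbers. The genotypes came from SNP votes in reads of the same libraries, smoothed along the chromosome by a hidden Markov model, and the votes within the region itself were few. Of 61 votes on *Ctnna2* in heterozygous embryos 42 were for Cast, against 0 of 47 in B6/B6 embryos. On *Lrrtm1* the numbers were 6 of 11 and 0 of 9. No embryo had 20 votes on either gene, the number below which the study treated a gene as unknown before smoothing, so the genotype of the region was inferred from its neighbours.

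Expression was compared in the embryos with a somite number, 70 heterozygous and 77 B6/B6, with sequencing lane and somite number as covariates. Depth was 496568 to 5370322 reads on genes in the heterozygous embryos (median 2362890) and 245220 to 5134607 in the B6/B6 embryos (median 2090295). Every one of the 14 lanes held 3 to 7 heterozygous and 4 to 8 B6/B6 embryos. Mean somite number was 48.9 ± 3.2 (SD, n = 70) and 48.7 ± 2.8 (SD, n = 77), and heterozygosity on the other autosomes averaged 48.4% ± 9.5 and 48.6% ± 9.6 of genes. Levels are reads on a gene per 1000000 reads on all genes (RPM), fold changes are heterozygous over B6/B6 from edgeR's quasi-likelihood test, and a gene was called at a Benjamini-Hochberg adjusted p under 0.05 over the 9762 autosomal genes that averaged 5 RPM or more. Embryos of a litter share a mother, so the p-values treat litter mates as separate samples.

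Neither gene of the region differed detectably between the genotypes. *Ctnna2* ranged from 2.07 to 172 RPM in heterozygous embryos (median 8.29) and from 2.94 to 204 RPM in B6/B6 embryos (median 9.20), and the groups overlapped throughout. Its log2 fold change was -0.08 (SE 0.10, unadjusted p = 0.44). The wide range of levels lay largely between lanes. The lane median was 3.86 to 8.56 RPM in lanes A to I and 70.3 to 120.5 RPM in lanes J to N, and every lane held both genotypes. *Lrrtm1* had 365 reads in the 70 heterozygous and 398 reads in the 77 B6/B6 embryos, a mean of 2.22 ± 1.54 against 2.73 ± 2.53 RPM, under the minimum for the test. With the minimum lowered to 1 RPM its log2 fold change was -0.12 (SE 0.15, unadjusted p = 0.43).

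On chromosome 6, 25 of 471 tested genes (5.31%) differed by genotype at *Lrrtm1*, with 17 higher and 8 lower in heterozygous embryos. Over all autosomes 27 of 9762 genes (0.277%) were called, and off chromosome 6 only 2 of 9291 (0.0215%). The absolute log2 fold changes of the 25 genes ran from 0.21 to 2.08 with a median of 0.42. In the plot of fold change against distance, the called genes reached from 71.98 Mb below to 60.5 Mb above *Lrrtm1*. None of the 5 tested genes nearest to *Lrrtm1*, *Ctnna2* among them, was called, and their largest absolute log2 fold change was 0.10. The nearest called gene, *Tgoln1*, lies 4.63 Mb away.

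**Figure D1:**
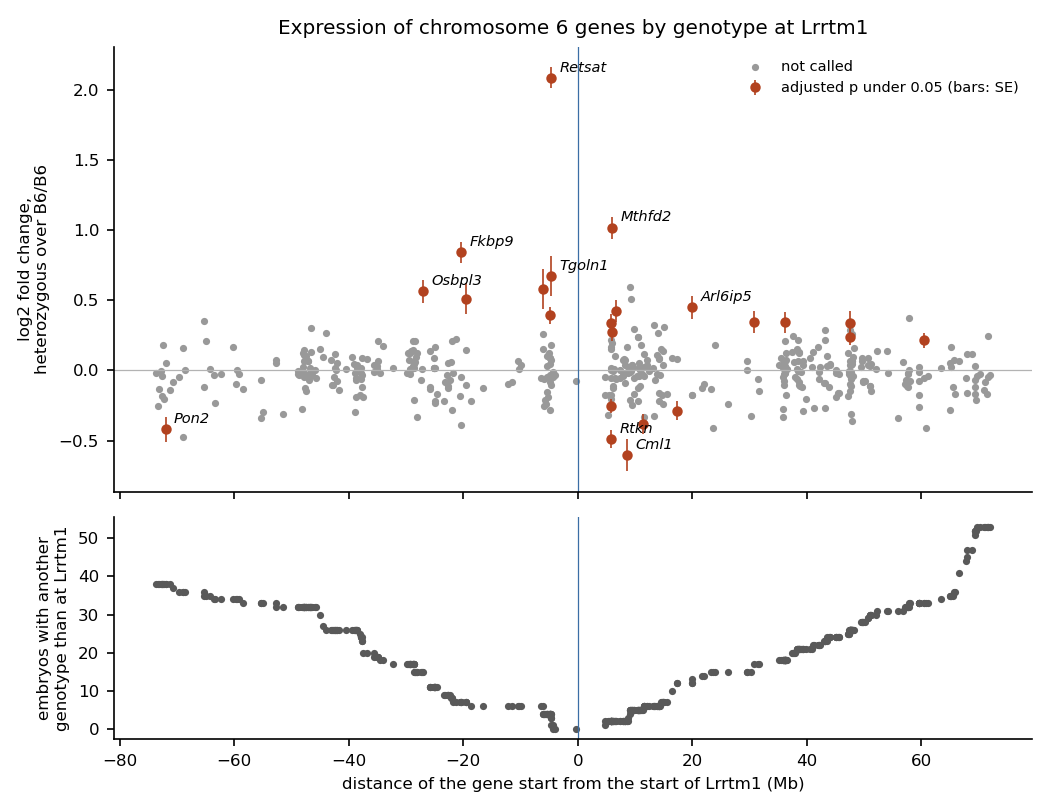
Upper panel, log2 fold change (heterozygous over B6/B6 at *Lrrtm1*) of each tested chromosome 6 gene with an mm9 position against the distance in Mb of its lower coordinate from that of *Lrrtm1*, with called genes in red and bars for the SE. Lower panel, the number of embryos whose genotype at that gene is called and differs from the one at *Lrrtm1*. *Retsat* stands highest at 2.08, and the number of embryos with another genotype rises with distance to 53.

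The genotype at *Lrrtm1* stood for the genotype of most of the chromosome. Within 10 Mb the tested genes had another genotype in 0 to 6 embryos, from 25 to 50 Mb in 11 to 32, and beyond 50 Mb in 28 to 53. Genes were called most often close by, 11 of 84 (13.1%) within 10 Mb, 5 of 78 (6.41%) from 10 to 25 Mb, 5 of 209 (2.39%) from 25 to 50 Mb and 2 of 92 (2.17%) beyond. The remaining 2 called genes, *1810044D09Rik* and *Zfp862*, had no mm9 position in the annotation.

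*Retsat*, which encodes retinol saturase, an enzyme of vitamin A metabolism, showed the strongest difference on the chromosome. It lies at chr6:72548469-72558408 (plus strand), 4.64 Mb below *Lrrtm1*. Heterozygous embryos had 13.9 to 99.3 RPM (median 55.6) and B6/B6 embryos 0 to 55.0 RPM (median 11.7). Every heterozygous embryo lay above the B6/B6 median, every B6/B6 embryo lay below the heterozygous median, and the mean was higher in heterozygous embryos in 14 of 14 lanes. The fold change was 4.24 (log2 2.08, SE 0.08, adjusted p = 1.5e-54 by edgeR). Most of the overlap lay in embryos with a crossover between the loci. The 2 embryos heterozygous at *Lrrtm1* but B6/B6 at *Retsat* had 13.9 and 17.3 RPM, and the 1 embryo with the opposite pair had 55.0 RPM. With the same genotype at both loci, heterozygous embryos ranged from 22.3 to 99.3 RPM (n = 68) and B6/B6 embryos from 0 to 22.8 RPM (n = 76), so that the ranges still touched.

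*Mthfd2*, a mitochondrial enzyme of folate metabolism that lies 6.06 Mb above *Lrrtm1* (chr6:83255685-83267600, minus strand), was next in strength. It had 20.7 to 177 RPM in heterozygous embryos (median 117) and 10.3 to 93.4 RPM in B6/B6 embryos (median 51.6). No B6/B6 embryo exceeded the heterozygous median, while 9 heterozygous embryos fell below the B6/B6 median. The fold change was 2.02 (log2 1.02, SE 0.08, adjusted p = 9.5e-22 by edgeR), with the higher mean in heterozygous embryos in 14 of 14 lanes. Mean levels were lower on the second flowcell in both groups, 90.97 ± 42.02 (SD, n = 34) against 43.4 ± 16.2 RPM (n = 43), than on the first, 122 ± 28.3 (n = 36) against 60.9 ± 14.5 RPM (n = 34). This did not hold for every lane of the second flowcell. Heterozygous embryos had 105 RPM or more in its lanes H and I, and 32.6 to 48.4 RPM in lane J.

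*Fkbp9*, a peptidyl-prolyl isomerase of the endoplasmic reticulum at chr6:56782053-56829352 (plus strand), lay farther off, 20.4 Mb below *Lrrtm1*. Heterozygous embryos had 10.4 to 55.5 RPM (median 34.4) and B6/B6 embryos 7.32 to 53.4 RPM (median 17.6), a fold change of 1.79 (log2 0.84, SE 0.08, adjusted p = 2.2e-17 by edgeR). The ranges overlapped almost fully, and 7 embryos had another genotype at *Fkbp9*. Of these, the 4 that were heterozygous at *Fkbp9* but B6/B6 at *Lrrtm1* averaged 39.7 ± 12.9 RPM, and the 3 with the opposite pair 22.8 ± 10.7 RPM.

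**Figure D2:**
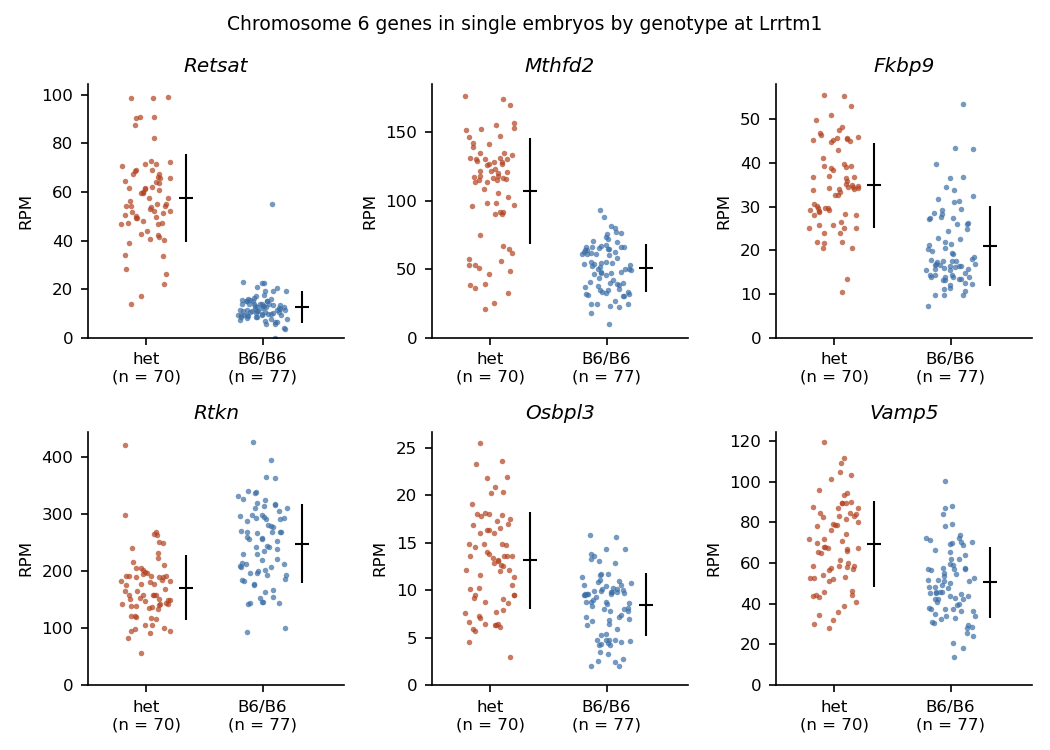
RPM of 6 chromosome 6 genes in single embryos, 70 heterozygous (red) and 77 B6/B6 (blue) at *Lrrtm1*. Each point is an embryo, and the bar beside each group gives the mean and SD. *Retsat* is nearly separated by genotype (medians 55.6 and 11.7 RPM), *Rtkn* is lower in heterozygous embryos, and the other 4 genes are higher with overlapping groups.

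The other genes with higher levels in heterozygous embryos were smaller in effect. *Osbpl3*, of the oxysterol-binding protein family, had 13.1 ± 5.1 RPM against 8.44 ± 3.33 RPM (log2 0.56, SE 0.08). *Vamp5*, a SNARE protein of membrane traffic, had 69.3 ± 21.2 against 50.5 ± 17.5 RPM (log2 0.39, SE 0.06). *Tgoln1*, a protein of the trans-Golgi network, had 45.2 ± 36.7 against 34.2 ± 33.9 RPM (log2 0.67, SE 0.14). The annotated 3′ ends of *Tgoln1* and *Retsat* lie 18 bp apart on opposite strands, and both genes were higher. *Arl6ip5* (log2 0.45, SE 0.08), which encodes a membrane protein of the endoplasmic reticulum, *Dysf* (0.42, SE 0.08), the muscle membrane repair protein dysferlin, and *Tlx2* (0.34, SE 0.07), a homeobox gene of enteric neurons, complete the higher genes among the 15 with the smallest p. Within flowcells *Tgoln1* had a log2 fold change of 1.013 (SE 0.22) on the first and 0.41 (SE 0.17) on the second, where it was not called (adjusted p = 0.998 by edgeR).

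Among the genes lower in heterozygous embryos, the smallest p belonged to *Rtkn*, which encodes the scaffold protein rhotekin. *Rtkn* had 56.5 to 421 RPM in heterozygous embryos (median 161) and 92.7 to 426 RPM in B6/B6 embryos (median 257), with a log2 fold change of -0.49 (SE 0.06, adjusted p = 3.4e-09 by edgeR). The mean was lower in heterozygous embryos in all 14 lanes although the ranges overlapped almost fully. Its exons overlap those of *Wdr54* on the opposite strand, which was higher in heterozygous embryos (log2 0.27, SE 0.06, adjusted p = 0.0061 by edgeR), and the strand setting of the counting is not given in the sources used here. *1810044D09Rik* had 4.84 ± 2.49 against 8.31 ± 3.67 RPM (log2 -0.80, SE 0.12), and *Cml1* 4.60 ± 2.98 against 5.89 ± 3.45 RPM (log2 -0.60, SE 0.12). *Mgll*, the monoacylglycerol lipase (log2 -0.38, SE 0.07), *Zfp862*, a zinc finger gene (-0.37, SE 0.07), and *Loxl3*, a lysyl oxidase-like enzyme (-0.25, SE 0.05), were the other lower genes among the 15. Within flowcells *Mgll* had -0.59 (SE 0.11) on the first and -0.18 (SE 0.10) on the second, where it was not called (adjusted p = 0.998 by edgeR). Such a loss was common, since only *Retsat*, *Mthfd2*, *Fkbp9*, *Rtkn* and *Vamp5* of chromosome 6 were called on the second flowcell alone. On the first alone, *Cml1* and *Zfp862* were not called among these 15 genes. Exons of *Dysf*, *Mgll*, *Loxl3* and *Tgoln1* also overlap those of another annotated gene on the opposite strand.

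Permuting the genotypes within lanes 100000 times, after lane and somite number were regressed out of log2(RPM + 1), gave the smallest p that this number of permutations allows, 1e-05, for 12 of the 16 named genes called on chromosome 6. For the other 4 the two-sided permutation p lay between 2e-05 and 0.00036. All 25 called genes had the higher mean in the genotype of the overall difference in at least 10 of 14 lanes, and 21 of them in 12 or more. These genes were selected on the same embryos, so the counts describe them and do not test them anew.

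The genotype at the gene itself was then separated from that at *Lrrtm1* where crossovers allowed. For 10 of the 25, the genotype at the gene differed from that at *Lrrtm1* in 12 to 38 embryos, enough to fit both genotypes together. In that fit the *Lrrtm1* term was called for 0 of the 10 (edgeR, all with unadjusted p from 0.29 to 0.89, none under 0.05), and its absolute log2 size was 0.01 to 0.14. The term for the gene's own genotype was 0.28 to 0.74 in absolute log2 size and was called for 8 of the 10. For both terms the adjusted p is over 9762 genes, with genes not refitted keeping their p from the *Lrrtm1* genotype alone. No adjustment among own-genotype tests of all genes was made. Over all 319 chromosome 6 genes so fitted, the *Lrrtm1* term was called for 0.

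*Pon2*, a paraoxonase in the imprinted cluster near the start of the chromosome and 71.98 Mb from *Lrrtm1*, shows this most clearly in its levels. It was the only called gene in the lists of genes related to the region or to imprinting. By genotype at *Lrrtm1* it had a log2 fold change of -0.42 (SE 0.09, adjusted p = 0.0044 by edgeR), with 24.2 ± 9.7 RPM in heterozygous and 30.1 ± 12.3 RPM in B6/B6 embryos. Without lane G the adjusted p was 0.051 (edgeR). *Pon2* was also not called on the second flowcell alone, with F1 mothers only or with no lane term. By both genotypes, embryos heterozygous at *Pon2* had 20.9 ± 5.9 RPM with a heterozygous *Lrrtm1* (n = 50) and 19.6 ± 8.4 RPM without (n = 18). Embryos B6/B6 at *Pon2* had 32.4 ± 12.4 RPM (n = 20) and 33.3 ± 11.5 RPM (n = 59). Fitted together, the log2 fold change was -0.74 (SE 0.08, adjusted p = 6.8e-12 by edgeR) for the genotype at *Pon2* and -0.05 (SE 0.08) for that at *Lrrtm1*.

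For *Arl6ip5* and *Osbpl3* the term for the gene's own genotype was 0.66 (SE 0.14) and 0.54 (SE 0.13) on the log2 scale, against -0.09 (SE 0.14) and 0.14 (SE 0.13) for the genotype at *Lrrtm1*. The other 15 called genes had another genotype than *Lrrtm1* in at most 7 embryos, too few for the fit of both genotypes. For *Retsat* and *Fkbp9* the levels of those embryos are given above.

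**Figure D3:**
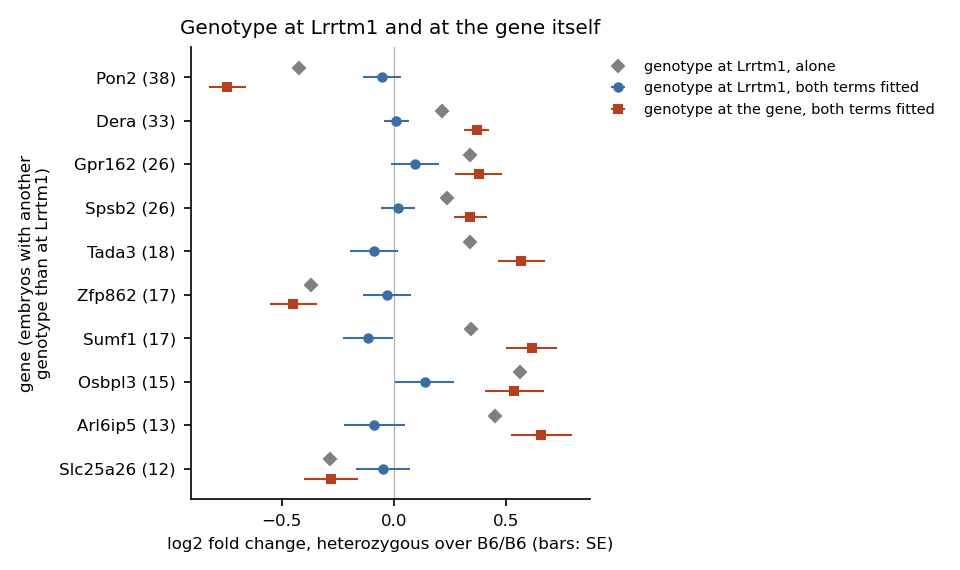
Log2 fold change, heterozygous over B6/B6, for the 10 called genes whose own genotype differed from that at *Lrrtm1* in at least 10 embryos (number in brackets). Grey diamonds, genotype at *Lrrtm1* fitted alone. Blue circles and red squares, genotype at *Lrrtm1* and at the gene fitted together, with bars for the SE. The blue circles lie between -0.11 and 0.14, and the red squares lie away from 0 on the side of the grey diamonds.

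The alleles of these genes were also read directly in the 16 F1 embryos, which the grouping did not use. All F1 embryos are heterozygous at every autosomal gene, 8 from B6 mothers and Cast fathers (B6 × Cast) and 8 from the reciprocal cross (Cast × B6). The B6 allele fraction (BAF) is the share of SNP votes for B6, and a BAF under 0.5 means a higher Cast allele. Of the 25 called genes, 22 had at least 20 votes in each cross, and in 21 of them the allele with the higher mean F1 share was the one associated with the higher level in N2 embryos. Exact sign flips of BAF minus 0.5 over embryos, adjusted over 8459 autosomal genes, called 18 of the 22, all in that direction. The background is high, since 50.0% of the 8459 genes were called at F1 depth. Among the chromosome 6 genes not called in N2, 247 of 392 (63.0%) had the matching direction, and on other chromosomes 4068 of 8045 (50.6%).

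*Retsat* had a mean BAF of 0.107 ± 0.052 (SD, n = 8) in B6 × Cast and 0.178 ± 0.052 (n = 8) in Cast × B6, and the Cast allele was higher in 16 of 16 embryos. *Mthfd2* had 0.334 ± 0.040 and 0.322 ± 0.056, and *Fkbp9* 0.252 ± 0.016 and 0.260 ± 0.038. *Pon2* lay on the other side with 0.891 ± 0.033 and 0.880 ± 0.034, as did *1810044D09Rik* with 0.988 ± 0.034 and 0.967 ± 0.054. For these 5 genes the exact sign-flip test gave its smallest p, 3.1e-05 (adjusted p = 0.00015). In both crosses the mean of each lay on the same side of 0.5. *Ctnna2* in the region itself, with 384 votes over the 16 embryos, had 0.391 ± 0.133 and 0.374 ± 0.105, and the Cast allele was higher in 13 embryos (adjusted p = 0.0048, exact sign flips), although its total level did not differ detectably between N2 genotypes.

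The size of the allele difference was also predicted from N2 expression, as the BAF that the ratio of mean RPM between B6/B6 and heterozygous embryos at the gene itself would give. Over the 22 genes the median absolute gap between predicted and measured F1 BAF was 0.062, and Pearson's r was 0.87 (Spearman's rank correlation 0.71). The points share the N2 libraries and the genes were chosen on N2 expression, so these correlations describe the set. *Retsat* was predicted at 0.10 and measured at 0.14, and *Zfp862* was predicted at 0.68 and measured at 0.67. The widest gap, 0.32, belonged to *Arl6ip5*, predicted at 0.42 and measured at 0.10. The mean RPM behind the prediction was not adjusted for lane. *Arl6ip5* had 74.4 to 290 RPM in lane J, which held 8 B6/B6 and 3 heterozygous embryos, and at most 79.1 RPM on the first flowcell. The part of lane in that gap was not tested.

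**Figure D4:**
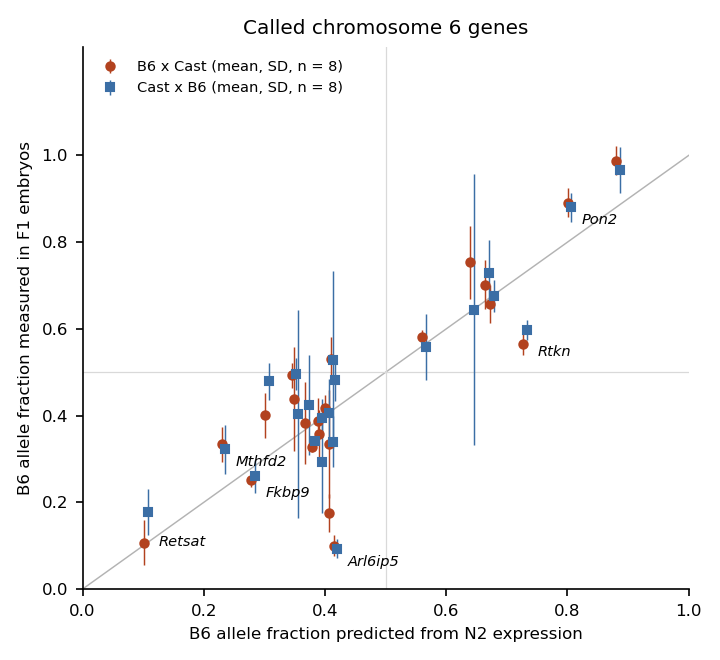
B6 allele fraction in F1 embryos (mean and SD of 8 embryos per cross, red B6 × Cast, blue Cast × B6) against the fraction predicted from N2 expression, for the 22 called chromosome 6 genes with votes in F1. The line marks equal values. Most genes lie near it, while *Arl6ip5* (predicted 0.42, measured 0.10) lies farthest away.

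The same fractions were read in N2 embryos heterozygous at the gene. These votes come from the libraries on which the genes were selected and genotyped, so the values are a description. *Retsat* had a mean BAF of 0.116 ± 0.045 (SD, n = 38 embryos heterozygous at *Retsat* with 20 or more votes), *Mthfd2* 0.238 ± 0.055 (n = 70) and *Fkbp9* 0.327 ± 0.137 (n = 64). *Rtkn*, measured at 0.58 in F1, had 0.539 ± 0.085 (n = 55) and was predicted at 0.73.

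The genotype effect was also compared between the 2 backcrosses, in which the Cast copy was paternal (B6 mothers) or maternal (F1 mothers). No gene was called for a genotype by mother term (0 of 9762, 0.0%, edgeR), and DESeq2 called 0, while 202 genes (2.07%) had an unadjusted p under 0.05 in edgeR. All 25 called chromosome 6 genes had fold changes of the same sign under both mothers. *Retsat* had a log2 fold change of 2.19 (SE 0.09) with B6 mothers and 1.93 (SE 0.13) with F1 mothers, *Mthfd2* 1.06 (SE 0.11) and 0.92 (SE 0.11), and *Fkbp9* 0.91 (SE 0.10) and 0.76 (SE 0.12). *Mgll* had the smallest unadjusted interaction p of the 25, 0.016, with -0.25 (SE 0.09) and -0.62 (SE 0.11). The smallest interaction p over all genes belonged to *Serbp1*, an mRNA-binding protein gene on chromosome 6, with -0.10 (SE 0.06) and 0.19 (SE 0.07, interaction adjusted p = 0.66 by edgeR), followed by *1110028C15Rik*, *Ccdc112*, *Foxk2* and *B630005N14Rik*.

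Off chromosome 6 the only called genes were *Ngp* and *Ltf*, which encode neutrophilic granule protein and lactoferrin, proteins of neutrophil granules. Both lie on chromosome 9, at chr9:110322254-110325514 and chr9:110921796-110945270. Their adjusted p was taken over all 9762 autosomal genes, and the many small p-values of chromosome 6 lower it. No adjustment over the genes off chromosome 6 alone was made. Of those 9291 genes, 307 (3.30%) had an unadjusted p under 0.05 by edgeR. *Ngp* had 0 to 33.03 RPM in heterozygous embryos (median 4.78) and 0 to 40.7 RPM in B6/B6 embryos (median 7.99), a log2 fold change of -0.78 (SE 0.17, adjusted p = 0.0037 by edgeR). *Ltf* had 0 to 36.9 RPM (median 3.92) and 0 to 43.9 RPM (median 6.16), a log2 fold change of -0.71 (SE 0.17, adjusted p = 0.015 by edgeR). The ranges overlapped almost fully. The mean was lower in heterozygous embryos in 12 of 14 lanes for *Ngp* and 13 of 14 for *Ltf*. The two-sided permutation p was 0.00014 and 0.00075. Both genes were selected by their p in the same embryos, out of 9291 genes off chromosome 6. The permutation p is not adjusted for that selection, so it and the lane counts describe them and do not test them anew.

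The levels of both genes are low, 1100 and 1531 reads of *Ngp* and 906 and 1278 reads of *Ltf* in the 2 groups. In whole embryos, fewer cells of a type and less RNA per cell cannot be told apart. Both genes had the genotype of *Lrrtm1* in 53.2% of embryos, so their own genotype was nearly unlinked from it, and with their own genotype in the fit the *Lrrtm1* term stayed at -0.74 (SE 0.16, adjusted p = 0.0088 by edgeR) for *Ngp* and -0.73 (SE 0.17, adjusted p = 0.017) for *Ltf*. The own-genotype term was -0.39 (SE 0.17, unadjusted p = 0.024 by edgeR) for *Ngp* and 0.15 (SE 0.17, unadjusted p = 0.38) for *Ltf*, neither called. In F1 embryos the mean BAF was 0.70 for *Ngp*, with the B6 allele higher in all 16, and 0.50 for *Ltf*. By genotype at *Lrrtm1* within each kind of mother, *Ngp* had -0.77 (SE 0.23) with B6 and -0.76 (SE 0.24) with F1 mothers. *Ltf* had -0.78 (SE 0.22) and -0.67 (SE 0.26), and none was called within 1 kind of mother. Within flowcells *Ngp* had -0.70 (SE 0.23) and -0.78 (SE 0.23), and *Ltf* -0.71 (SE 0.22) and -0.70 (SE 0.24), none called. These subsets by mother and flowcell are parts of the embryos on which both genes were selected, so they are not separate evidence. *Ltf* was no longer called without lane C (adjusted p = 0.051 by edgeR), lane D (0.066) or lane K (0.12), while *Ngp* was called without any single lane. Over all 154 embryos with no somite term neither was called (adjusted p = 0.29 and 0.35 by edgeR).

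A list of 18 granulocyte genes was chosen after the values of *Ngp* and *Ltf* were seen. With these 2 included, 9 passed the minimum, 8 of them had a log2 fold change below 0, and the median was -0.47. The median over all tested genes was -0.0017. None of the other 7 was called. *Lcn2* had -0.59 (SE 0.16, adjusted p = 0.086 by edgeR), *Prg2* -0.49 (SE 0.16, adjusted p = 0.35), *S100a8* -0.47 (SE 0.16, adjusted p = 0.52), *S100a9* -0.47 (SE 0.14, adjusted p = 0.20) and *Camp* -0.34 (SE 0.16, adjusted p = 1.0). *Prtn3*, a serine protease of granules, had -0.10 (SE 0.08), and *Mpo*, myeloperoxidase, had 0.08 (SE 0.10). Of the members under the minimum, *Elane* had 0.17 (SE 0.17), *Mmp9* 0.06 (SE 0.12), *Fcnb* -0.07 (SE 0.17) and *Epx* -0.26 (SE 0.19) with the minimum at 1 RPM. With no minimum beyond 10 reads, *Mmp8* had -0.82 (SE 0.30), *Stfa2* -0.58 (SE 0.31), *BC100530* -0.03 (SE 0.35) and *Ctsg* -0.0042 (SE 0.39), none called. The summed level of the list was 52.9 to 639 RPM in heterozygous embryos (median 241) and 71.8 to 1174 RPM in B6/B6 embryos (median 284), and *Chi3l3* had no reads. These genes were read in the same embryos as *Ngp* and *Ltf* and are not separate evidence.

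*Pdia2* was not called. Its level was 0.557 to 65.3 RPM in heterozygous embryos (median 12.3) and 2.61 to 61.4 RPM in B6/B6 embryos (median 16.5), and the groups overlapped almost fully. The log2 fold change was -0.32 (SE 0.11, unadjusted p = 0.0041, adjusted p = 0.53 by edgeR), with a permutation p of 0.0035, and 22 genes off chromosome 6 had a smaller p. The mean was lower in heterozygous embryos in 10 of 14 lanes. It was -0.21 (SE 0.16) with B6 mothers and -0.50 (SE 0.14) with F1 mothers (interaction unadjusted p = 0.099 by edgeR).

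The genotype at *Pdia2* itself, which matched that at *Lrrtm1* in 50.6% of embryos, went the other way. With both genotypes fitted, the log2 fold change was 0.40 (SE 0.11, unadjusted p = 0.00038) for *Pdia2*'s own and -0.33 (SE 0.10, unadjusted p = 0.0023) for that at *Lrrtm1*, neither called (adjusted p = 0.071 and 0.58 by edgeR). Both were adjusted mostly among main-fit tests of the genotype at *Lrrtm1*, as above. No adjustment among own-genotype tests of all genes was made. Embryos heterozygous at both loci averaged 20.8 ± 14.7 RPM (n = 31), and those heterozygous at *Lrrtm1* only 14.2 ± 11.8 RPM (n = 39). Embryos heterozygous at *Pdia2* only had 21.6 ± 15.9 RPM (n = 35), and those with neither Cast copy 18.9 ± 12.1 RPM (n = 42). The spread within each of these groups exceeded the differences between them.

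The call for *Pdia2* depended on the processing. In the rank-sum test after sex, lane, somite number and 15 principal components had been regressed out, *Pdia2* was first of the genes off chromosome 6, with a difference of -0.40 in log2(RPM + 1) and an adjusted p of 1.9e-05. That test called 22 of 9291 genes off chromosome 6 (0.237%), 18 lower and 4 higher in heterozygous embryos, and 57 on chromosome 6. It was the only one of 34 alternatives that called *Pdia2*, and over all of them the adjusted p ran from 1.9e-05 to 1.0. The direction was lower in heterozygous embryos in each.

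**Figure D5:**
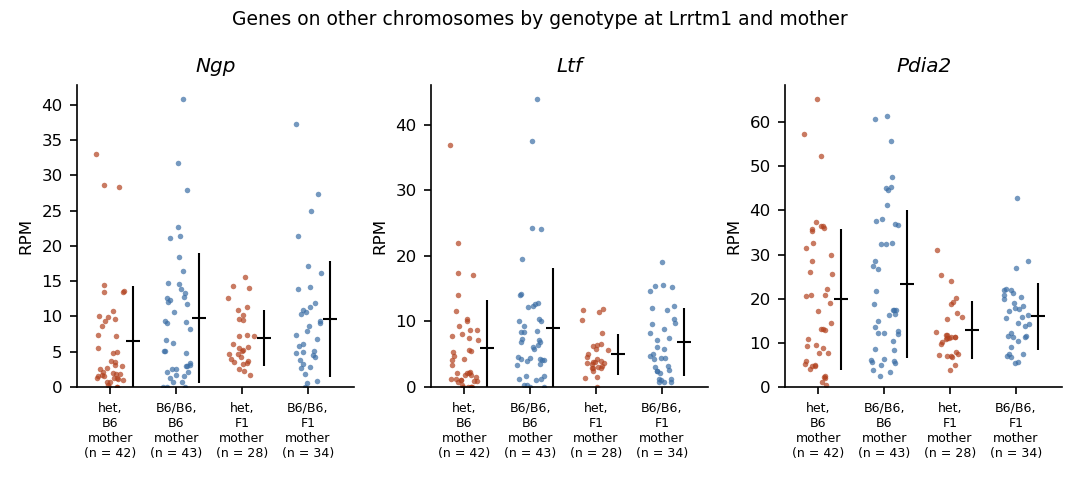
RPM of *Ngp*, *Ltf* and *Pdia2* in single embryos by genotype at *Lrrtm1* (red heterozygous, blue B6/B6) and by mother, with the mean and SD beside each group. The means are lower in heterozygous embryos under both mothers (for *Ngp* 6.49 against 9.79 RPM with B6 and 6.99 against 9.65 RPM with F1 mothers), and the points overlap widely.

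Lists of genes related to the region held a single called gene, and with 0.277% of all tested genes and 5.31% of those on chromosome 6 called, counts of 0 or 1 are near the background. Of 16 tested genes of α-catenin and cadherin adhesion, 0 were called, with a median log2 fold change of -0.045, and of 12 *Lrrtm* family members and synaptic partners 0 were called (median -0.014). Among 25 protein disulfide isomerases and folding enzymes of the endoplasmic reticulum, *Pdia2* included, 0 were called (median -0.024), and 0 of 19 tested genes of the stretch of chromosome 17 around *Pdia2* (median -0.0011). Of 9 tested genes in the list of chromosome 6 imprinted genes, *Pon2* alone was called, with a median of -0.035 for the list. The B6 allele of *Pon2* was the higher one in both F1 crosses (mean BAF 0.891 and 0.880), whichever parent gave it. All these lists were chosen with earlier results of these data known.

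No marker of the tissues listed was called. The median log2 fold change was -0.055 for 10 erythroid genes, -0.012 for 13 neural genes, -0.019 for 9 cartilage genes, 0.10 for 12 muscle and heart genes and 0.094 for 9 liver genes. Values above 0 were found for all 9 liver genes and 10 of the 12 muscle and heart genes, against 4 of 10 erythroid, 6 of 13 neural and 4 of 9 cartilage genes. Among the erythroid genes *Hba-a1* and *Hba-a2* had the same values, and those of *Hbb-b1* and *Hbb-b2* were nearly the same. The 10 are thus not 10 separate readings. The summed level of the liver genes was 249.6 to 3028 RPM in heterozygous embryos (median 1294) and 535 to 2616 RPM in B6/B6 embryos (median 1247). *Fabp1*, the liver fatty acid-binding protein 6.04 Mb from *Lrrtm1*, was called higher (log2 0.58, SE 0.14, adjusted p = 0.022 by edgeR), with an F1 BAF of 0.42 that did not pass the sign-flip test (adjusted p = 0.17, exact). The part of liver content in that difference was not tested. Only 2 of the pancreatic bud genes passed the minimum, with 0 called (median 0.064), and none of the 12 placenta and decidua genes did.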

How the data were processed

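Single whole embryos were profiled by 3SEQ, a 3′-biased RNA sequencing method. The authors trimmed poly(A) ends from the reads, mapped them with Bowtie2 to mm9 and to a Cast genome built from published SNPs, and deposited raw counts of reads on exons per RefSeq gene, after discarding reads that fit more than 1 place nearly as well. They also deposited votes per allele, estimated counts that need not be whole because a read covering several SNPs divides its vote among them. The deposited genotypes hold 1 code per gene and embryo (0.5 heterozygous, 1.0 B6/B6, 0 not called).

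Embryos with a mother, litter and lane in the labels and a code of 0.5 or 1.0 at *Lrrtm1* were used, and 8 columns without these labels and 6 without genotypes were not analysed here. Another 7 embryos lack a somite number. The members and gene lists were chosen with earlier results of these data known.

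Counts were tested with edgeR 4.0.16 (quasi-likelihood, TMM, terms for lane, somite number and genotype, autosomal genes that averaged 5 RPM or more) in R 4.3.3. The SE is the log2 fold change divided by the root of F. On simulated counts over 9762 genes for this comparison, 27 of 70 changes of 0.25 on the log2 scale, 62 of 72 of 0.5 and 58 of 58 of 1.0 were recovered, with 10 false calls. BAF was tested on genes with at least 20 votes in each F1 cross by exact sign flips of the 16 embryos. The predicted BAF followed the formula of the study's methods, from mean RPM by the gene's own genotype. Coordinates are those of mm9 in GENCODE vM1, in which 21050 of 22033 symbols were found once on the same chromosome and strand. Sex came from *Xist* reads.

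Named were the genes of the region, *Pdia2*, the 15 called chromosome 6 genes with the smallest p, all called genes off chromosome 6, called members of the lists and the 5 smallest p of the interaction. Other names, such as *Fabp1*, *Wdr54*, the granulocyte genes, *Prap1* and the remaining genes in the plot of both genotypes, were chosen after their values were seen. Alternatives used DESeq2 1.42.0, limma 3.58.1 voom, other filters, covariates and subsets of embryos, and a rank-sum test after 15 principal components in place of the study's PEER step.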

Additional observations from a re-analysis of the deposited data

Results flagged for a closer look

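Among the allele fractions of the named genes in the 2 F1 crosses, 1 embryo stood apart from the other 7 for *1810044D09Rik* in each cross. In B6 × Cast its B6 allele fraction was 0.905, from 21 votes, while the other 7 embryos were at 1.0. In Cast × B6 it was 0.846, from 13 votes, while the others lay between 0.939 and 1.0. A single vote moves such a fraction widely, and 2 of the 36 groups looked at were marked. The usual rate of about 1 in 20 groups by chance need not hold for fractions bounded at 1.0. With the other 7 embryos at 1.0, any lower value is marked. No gene was called for a difference of the genotype effect between the mothers.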

How the results depend on the processing

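On chromosome 6 the count of called genes was 57 with the rank-sum test after 15 principal components and 12 with no lane term. In subsets of the 147 embryos the count was 20 in flowcell 1 (70 embryos) and 5 in flowcell 2 (77 embryos). It was 11 with B6 mothers only (85 embryos) and 7 with F1 mothers only (62 embryos). Flowcell 1 thus gave more calls than flowcell 2 from fewer embryos. Without 1 lane at a time the count was 21 to 27. Of the 10 called genes that could be fitted with their own genotype, 0 were called for the genotype at *Lrrtm1* in that fit. Off chromosome 6 the count was 5 with no minimum beyond 10 reads, 5 with voom and litter as a random block, 22 with the rank-sum test, 0 with no lane term, 0 in flowcell 1, 1 in flowcell 2, 0 with B6 mothers only, 0 with F1 mothers only, 0 over all embryos without somite number, 1 at an adjusted p under 0.01, and 1 to 3 without 1 lane at a time. The other alternatives gave 19 to 34 genes on chromosome 6 and 2 to 3 off it. *Pdia2* was called only with the rank-sum test (-0.40). Of the named genes, *Retsat*, *Mthfd2* and *Fkbp9* were called in all 33 of their alternatives. *Ctnna2* changed sign to 0.0995 with litter in place of lane and to 0.0704 with B6 mothers only, and *Arl6ip5* to -0.0863 with its own genotype in the fit. The cause of these changes was not tested. The F1 comparison gave 18 genes with 50 votes as with 20, and 14 of 15 in heterozygous N2 embryos, where 56.3% of all 4687 genes tested were called. The N2 votes come from the libraries on which these genes were selected and genotyped, so the 14 of 15 is not separate evidence. No paired analysis was possible because the labels give the genotype groups no shared replicate numbers. Comparison within litters was made instead, with litter in place of lane (22 genes on chromosome 6 and 3 off it) and with litter as a random block (30 and 5). At the median of 2292026 reads, 5 RPM is few reads per embryo, so counting error is wide for the weakest genes in any 1 embryo.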

Other observations

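*Prap1*, a gene in the list of placenta and decidua, lay below the 5 RPM minimum and was called with the minimum at 1 RPM (log2 -1.96, SE 0.38, adjusted p = 9.0e-04 by edgeR). It had 42 reads in the 70 heterozygous and 254 reads in the 77 B6/B6 embryos, with a median of 0 RPM in both groups and no reads in 94 embryos. The highest value was 93.1 RPM in a B6/B6 embryo, against 6.82 RPM in the highest heterozygous one. Without the 3 embryos with the highest RPM, a choice made after seeing the data, the ratio of mean RPM moved from 0.184 to 0.581. The summed level of the list was 0 to 8.34 RPM in heterozygous and 0 to 96.1 RPM in B6/B6 embryos, and 3 of its 12 genes had no reads.

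For *Ngp* and *Ltf*, the same omission of the 3 highest embryos (1 heterozygous and 2 B6/B6 for each gene, with 53 to 57 somites) moved the ratio of mean RPM from 0.688 to 0.705 and from 0.697 to 0.719.

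Of the 22 genes that the rank-sum test called off chromosome 6 (0.237% of those tested), 5 belonged to the granulocyte list (*Lcn2*, *Ltf*, *Prg2*, *S100a9* and *Ngp*). That list had 9 tested members. It was chosen after *Ngp* and *Ltf* were seen in the same embryos, so the overlap is not separate evidence. The metallothionein genes *Mt1* and *Mt2* were also among the 22. Voom with litter as a random block called *Prg2*, *Plk4* and *Lcn2* beside *Ngp* and *Ltf*.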
